A study of Mus musculus with 2207 samples.

Results

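The 9 genes described here, *Slc1a2*, *Slc1a3*, *Glul*, *Gja1*, *Aqp4*, *Gfap*, *Sox9*, *Aldoc* and *Acsbg1*, are markers in common use for astrocytes. They were taken by symbol from the 52636 genes of both expression tables, and all 9 had a value for every nucleus. The nuclei carry 1 of 3 cell type labels, neuron, oligodendrocyte or microglia, and no nucleus is labelled as an astrocyte, so the question was in which labelled nuclei these genes were read, at what level, and whether several of them were read in the same nucleus. RNA of single nuclei of mouse cortex, 730 in 96-well and 1477 in 384-well plates, had been measured by RamDA-seq, a full-length method for total RNA, and the nuclei fell into 6 pools. All mice were C57BL/6 by the labels (C57BL6/J in the study's methods), 14 weeks old, and had been given tamoxifen (100 mg/kg) on 2 occasions, which the labels place at 3 weeks of age and the methods 1 week apart. Each pool came from 3 mice, and from which mouse a nucleus came is not in the labels.

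In 96-well plates, the pools were WT (wild type, *Ehmt1*+/+) with 73 oligodendrocytes and 36 microglia, and *Ehmt1*Δ/+, which lacks 1 copy of the gene of the histone methyltransferase GLP, with 71 and 32, beside 518 neurons in both. In 384-well plates, the WT pool had 69 oligodendrocytes and 16 microglia, the *Ehmt1*Δ/+ pool 46 and 19, the iTg pool 71 and 20, and the *Ehmt1*Δ/+; iTg pool 67 and 23, beside 1146 neurons in these pools together. Where 6 values are listed below, they are in this order of pools. All 4 of these 384-well pools carry *Ehmt1* iTg, a transgene at *Rosa26* that yields FLAG-tagged GLP once Cre recombinase has acted. By the labels, the WT and *Ehmt1*Δ/+ pools of the 384-well plates were without *CamKII-CreER*, while iTg and *Ehmt1*Δ/+; iTg carried it. The study's text names the driver for all 4 genotypes together, so the labels were followed. This driver acts in forebrain neurons after birth, not in glia. *Ehmt1* itself was higher in the pool labelled *Ehmt1*Δ/+ in 9 of 9 pairs of pools and cell type labels, with 18.7 against 31.2 RPKM (reads scaled to gene length and library size) in 96-well neurons, 19.5 against 31.7 RPKM in 384-well neurons and 20.7 against 33.9 RPKM in the neurons with *CamKII-CreER*. That goes against the label, reads were counted over the whole gene, and where the deletion lies was not checked, so every direction given below is one between pools as labelled.

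Astrocytes take up the transmitter glutamate that neurons release, turn it into glutamine and return it, buffer water and potassium around vessels and synapses, and are joined into a network by gap junctions. The genes for these tasks are strong in astrocytes but are not all silent elsewhere, since oligodendrocytes also make glutamine synthetase and some neurons carry transcripts of the glutamate transporter GLT-1. None of the 9 genes marks an astrocyte on its own, which is why the number of them in 1 nucleus was also counted.

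The members fall into 4 roles. *Slc1a2* (ENSMUSG00000005089.15, chromosome 2 from 102658659 to 102790784 of mm10, plus strand) encodes GLT-1 and *Slc1a3* (ENSMUSG00000005360.14, chromosome 15 from 8634124 to 8710764, minus strand) encodes GLAST, the glutamate transporters of astrocytes. *Glul* (ENSMUSG00000026473.15, chromosome 1 from 153899944 to 153909723, plus strand) encodes glutamine synthetase. *Gja1* (ENSMUSG00000050953.10, chromosome 10 from 56377330 to 56402513, plus strand) encodes the gap junction protein connexin 43, and *Aqp4* (ENSMUSG00000024411.9) the water channel of astrocyte endfeet. *Gfap* (ENSMUSG00000020932.14, chromosome 11 from 102887336 to 102900912, minus strand) encodes the intermediate filament of reactive astrocytes, and *Sox9* (ENSMUSG00000000567.5, chromosome 11 from 112782224 to 112787760, plus strand) a transcription factor of astrocyte identity. *Aldoc* (ENSMUSG00000017390.15, chromosome 11 from 78322968 to 78327781, plus strand) encodes the brain form of aldolase in glycolysis, and *Acsbg1* (ENSMUSG00000032281.11, chromosome 9 from 54604877 to 54661870, minus strand) an enzyme that activates long fatty acids.

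RefSeq promoters of GRCm38.p6, 250 bases before to 50 after a start, were found for 7 of the 9 members, 8 promoters in all. They were searched on both strands for the letters ACAATG, a SOX core, and TTGGCA, an NFI motif, since factors of both families act in astrocyte genes. The SOX letters were in 0 of the 8 promoters, against 12.6% of all 32851 promoters, and the NFI letters were in 1 of 8, against 14.1% of all. These shares describe these windows only. The promoter of *Slc1a2* is printed because this gene held most of the members' reads in neurons, and that of *Aldoc* because it alone holds a match of the NFI letters, in capitals. They lie at chr2:102706188-102706487 and chr11:78322823-78323122, both on the plus strand. The *Slc1a2* window lies inside the gene as placed above, which begins at 102658659, so the outer start was not searched. The only *Gfap* window likewise lies inside its gene.
Slc1a2: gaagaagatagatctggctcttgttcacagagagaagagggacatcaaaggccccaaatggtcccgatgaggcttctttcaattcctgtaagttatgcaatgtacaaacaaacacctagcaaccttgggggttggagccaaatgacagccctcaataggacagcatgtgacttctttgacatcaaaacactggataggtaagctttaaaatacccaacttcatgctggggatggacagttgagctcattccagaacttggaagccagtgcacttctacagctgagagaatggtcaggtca
Aldoc: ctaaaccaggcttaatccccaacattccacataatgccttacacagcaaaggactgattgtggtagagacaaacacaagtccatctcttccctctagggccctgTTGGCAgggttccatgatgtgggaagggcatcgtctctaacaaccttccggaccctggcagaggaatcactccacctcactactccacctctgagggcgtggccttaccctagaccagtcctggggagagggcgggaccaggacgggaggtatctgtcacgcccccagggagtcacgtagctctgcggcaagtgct

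The depth behind these values differs between labels. Median reads per nucleus, worked out from the spacing of low RPKM values, were between 323273 and 392718 in neurons of every pool and between 441701 and 510639 in glia of the 96-well plates, but between 39940 and 54877 in glia of the 384-well plates. For that reason each share of nuclei above 0 was also computed after thinning the nuclei to 291080 reads in the 96-well and 26381 reads in the 384-well plates. The markers of each label were present: the 8 oligodendrocyte markers summed to 3389 to 5236 RPKM in labelled oligodendrocytes and to 9.67 to 17.5 RPKM in neurons, and the 8 microglia markers to 2474 to 4093 RPKM in labelled microglia and to 6.72 to 11.8 RPKM in neurons. The 8 neuron markers summed to between 301.1 and 384 RPKM in neurons. In 5 nuclei of the whole series the markers of another type exceeded those of the label. The types compared were neurons, oligodendrocytes, their precursors, microglia, and endothelial and mural cells. Astrocyte genes were not part of this check, so it does not speak to astrocytes. No doublet caller was run.

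*Slc1a2* was read in most neurons of every pool and was the only member above 20 RPKM on average in neurons. It was above 0 in 96.4% of WT neurons (exact 95% interval 93.4 to 98.4) and 90.6% (86.4 to 93.8) of neurons labelled *Ehmt1*Δ/+ in 96-well plates, and in 91.2%, 92.8%, 91.3% and 91.1% of neurons in the 384-well pools. These intervals cover counting error only. Its mean was 51.6 and 49.8 RPKM in the 96-well pools and 23.97, 25.96, 22.4 and 40.7 RPKM in the 384-well pools, with a SD over nuclei between 22.4 and 53.6 RPKM. Neurons had the higher *Slc1a2* mean than either glial label in 6 of 6 pools. Labelled oligodendrocytes were at 7.03 and 1.05 RPKM in the 96-well and between 1.52 and 2.86 RPKM in the 384-well pools. Labelled microglia were at 9.93 and 5.93 RPKM, and in 384-well plates at 0.552, 11.4, 0.431 and 2.30 RPKM. The value of 11.4 RPKM, in the pool labelled *Ehmt1*Δ/+, rests on few nuclei, as 5 microglia gave 97.6% of its reads and the highest stood at 136.5 RPKM.

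Within the neurons, *Slc1a2* was higher in the excitatory class. When neurons were split by the larger of *Slc17a7*, which encodes the vesicular glutamate transporter of excitatory neurons, and *Gad1*, which encodes the enzyme that makes GABA in inhibitory ones, the *Slc1a2* mean was 64.8 against 10.9 RPKM in WT and 58.6 against 6.73 RPKM in the *Ehmt1*Δ/+ pool of the 96-well plates. In 384-well plates it was 30.9 against 3.92 RPKM in WT, 30.6 against 3.60 RPKM in *Ehmt1*Δ/+, 27.4 against 2.11 RPKM in iTg and 48.6 against 4.55 RPKM in the *Ehmt1*Δ/+ pool with iTg and the driver. The excitatory side was higher in 6 of 6 pools, where *Slc1a2* was above 0 in 97.3% to 99.5% of excitatory and in 56.6% to 88.7% of inhibitory neurons. Among the other members, *Gfap* also had the higher excitatory mean in 6 of 6 pools, but near the floor, with 2 to 11 inhibitory neurons of a pool above 0. In 96-well WT its means were 0.534 and 0.489 RPKM. The remaining 7 members had the higher excitatory mean in 2 to 4 of 6 pools. Of 15314 genes compared over the nuclei, *Slc17a7* was the gene most like *Slc1a2*, with a Pearson r of log2(RPKM + 1) of 0.63 over 518 neurons in 96-well plates and 0.64 over 1146 neurons in 384-well plates. Neurons of a plate format share pools, depth and neuron class, so the r is a description.

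**Figure D1:**
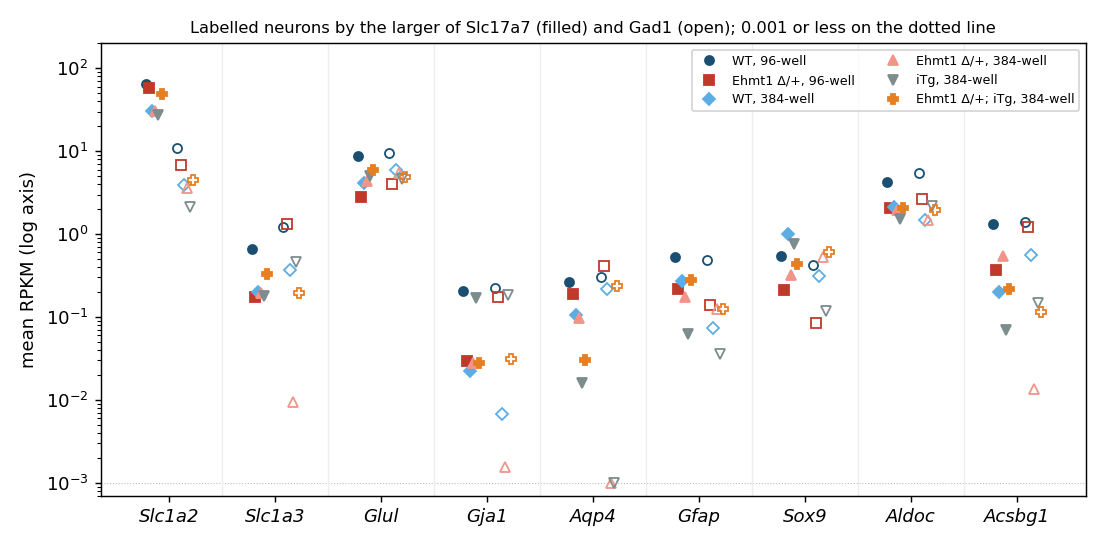
Mean RPKM (log axis) of each astrocyte gene in excitatory (filled) and inhibitory (open) neurons, 1 symbol per pool. *Slc1a2* lies between 27.4 and 64.8 RPKM in excitatory and between 2.11 and 10.9 RPKM in inhibitory neurons without overlap.

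*Slc1a3*, the partner transporter, showed the opposite order of labels. In labelled microglia its mean was 30.8, 36.3, 9.55, 14.6, 8.87 and 21.4 RPKM. In labelled oligodendrocytes it was 11.3, 11.4, 8.62, 10.4, 7.92 and 11.7 RPKM, and in neurons 0.807, 0.360, 0.240, 0.161, 0.235 and 0.309 RPKM. Microglia ranked above oligodendrocytes and these above neurons in 6 of 6 pools, although the first step was small in the 384-well WT and iTg pools, at 9.55 against 8.62 RPKM and 8.87 against 7.92 RPKM. *Slc1a3* was above 0 in 60% to 93.8% of microglia, in 45.7% to 67.1% of oligodendrocytes and in 5.56% to 29.6% of neurons, and the highest nucleus of all was a microglial one of the 96-well *Ehmt1*Δ/+ pool at 118.6 RPKM with 492 reads and *Csf1r*, the microglial growth factor receptor gene, at 506 RPKM.

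*Glul* was carried by labelled oligodendrocytes. Their mean was 141.4, 128.6, 179.3, 189.8, 194.4 and 215.7 RPKM, with 91.3% to 100% of nuclei above 0. Microglia followed at 108.6, 76.7, 51.9, 64.8, 117.7 and 77.3 RPKM and neurons were last at 8.98, 2.96, 4.76, 4.55, 4.93 and 5.74 RPKM, and this order held in 6 of 6 pools. Yet 61.8% to 94.1% of neurons had *Glul* above 0, with a median of 3.5 to 8.5 reads in such a nucleus. Of the *Glul* values above 0, 67.35% in 96-well and 57.95% in 384-well plates did not come out as whole numbers of reads, and for *Slc1a2* 43.3% and 42.9% did not. How the authors' counting made them was not tested, so the levels of these members carry that uncertainty.

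*Gja1* and *Aqp4*, whose products are typical of astrocyte membranes, were near the floor. *Gja1* was above 0 in 15.02%, 5.28%, 4.91%, 3.59%, 5.82% and 5.36% of neurons at 0.209, 0.0528, 0.0181, 0.0232, 0.170 and 0.0286 RPKM, and outside the 96-well WT pool a positive neuron had a median of 1 read. A single neuron of the iTg pool, at 31.8 RPKM and 56 reads, carried most of that pool's *Gja1*, and without it the mean was 0.0551 RPKM. *Aqp4* was above 0 in 7.91%, 3.40%, 2.11%, 1.31%, 0.727% and 1.43% of neurons. Its mean was highest in labelled microglia in 6 of 6 pools, with 3.05, 2.16, 2.06, 0.302, 0.567 and 0.991 RPKM there, but no more than 5 microglia of any pool had it, so the order rests on 14 microglia in all. In 0 of the 78 microglia of the 384-well plates was *Gja1* above 0, which at 3 counts allows a share of up to 3.85%.

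*Gfap* and *Sox9* were thin in neurons and mostly missing from the shallow glia. *Gfap* was above 0 in 22.9%, 9.81%, 8.77%, 7.19%, 3.64% and 10.4% of neurons, with means between 0.0570 and 0.523 RPKM and a median of 2 to 3 reads in a positive nucleus. Labelled microglia of the 96-well plates had higher *Gfap* means than neurons, at 1.06 and 0.72 against 0.52 and 0.20 RPKM. It was above 0 in 13.9% and 9.4% of these microglia. Oligodendrocytes there were at 0.57 and 0.19 RPKM. *Sox9* was above 0 in 17.4%, 9.81%, 13.7%, 10.5%, 15.3% and 13.6% of neurons, with means of 0.515, 0.190, 0.810, 0.353, 0.624 and 0.462 RPKM. In 96-well glia it was above 0 in 6.85% and 1.41% of oligodendrocytes and in 8.33% and 3.1% of microglia. *Sox9* was in 0 oligodendrocytes (a share of up to 1.19% at 3 counts) and in 0 of the 78 microglia (up to 3.85%) of the 384-well plates. Thinned to 26381 reads, neurons of these plates would hold it in 2.74% to 4.90% of nuclei.

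*Aldoc* and *Acsbg1* make up the metabolic members. *Aldoc* was above 0 in 79.1%, 49.8%, 38.2%, 29.4%, 30.2% and 42.1% of neurons at 4.53, 2.21, 1.94, 1.85, 1.65 and 2.02 RPKM. In oligodendrocytes it was above 0 in 56.2% and 21.1% of nuclei in the 96-well and in 2.17% to 8.96% in the 384-well pools. After thinning to 26381 reads, 9.89% to 12.5% of 384-well neurons would hold *Aldoc*, against 1.87% to 6.10% of oligodendrocytes. *Acsbg1* was above 0 in 37.5%, 16.98%, 10.5%, 8.82%, 4.73% and 7.86% of neurons, and in 0 oligodendrocytes and 0 of the 78 microglia of the 384-well plates, with the same limits as *Sox9*.

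**Figure D2:**
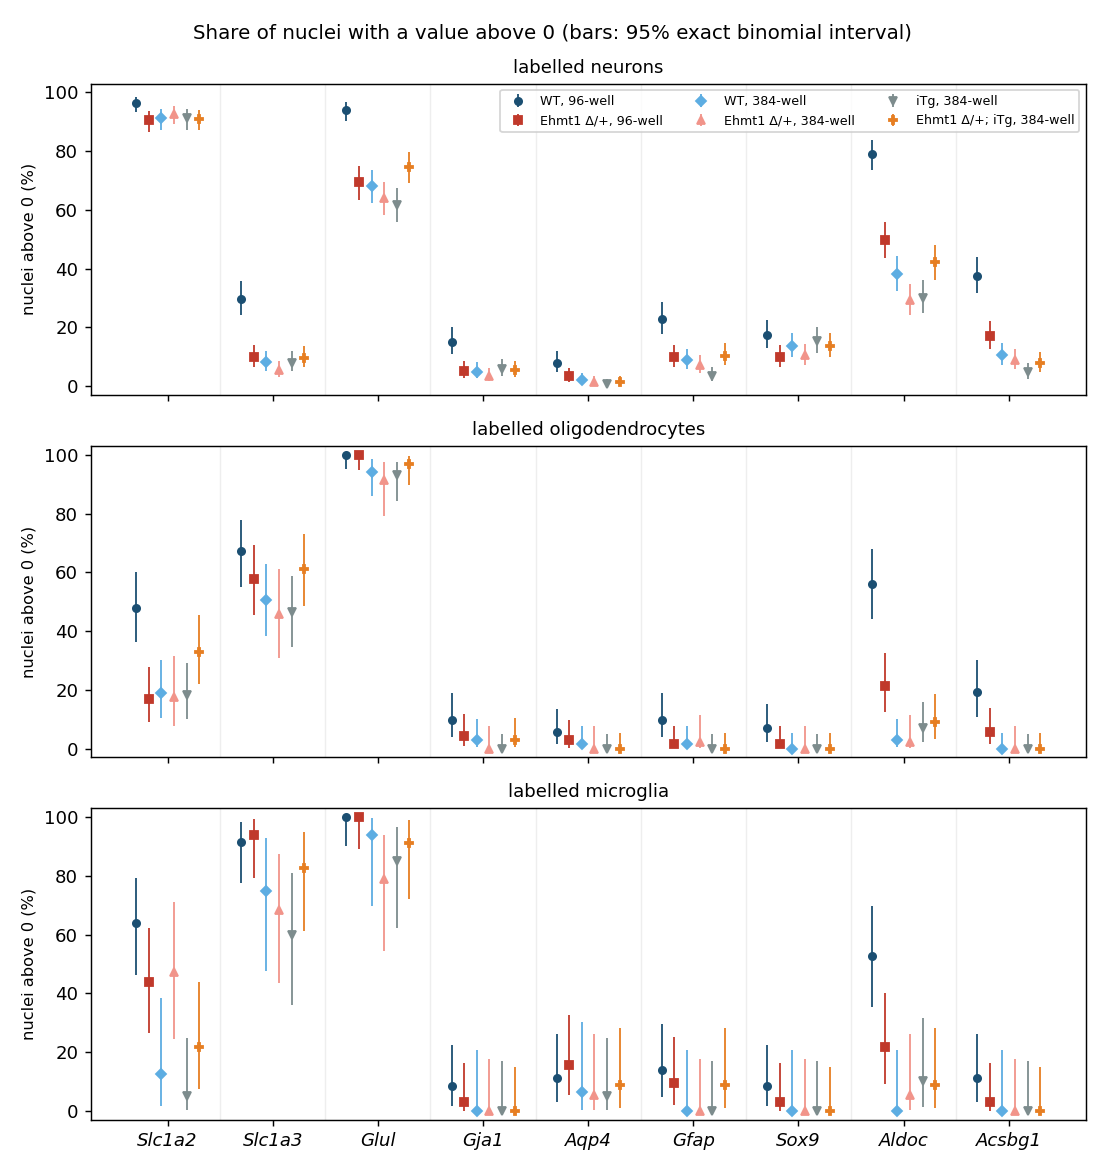
Percent of nuclei above 0 for each astrocyte gene (vertical axis) by cell type label (panels) and pool (symbols), with exact 95% intervals as bars. *Slc1a2* is above 0 in 90.6% to 96.4% of neurons and *Glul* in 91.3% to 100% of oligodendrocytes, while *Gja1* and *Aqp4* stay under 16% in every pool and label.

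**Figure D3:**
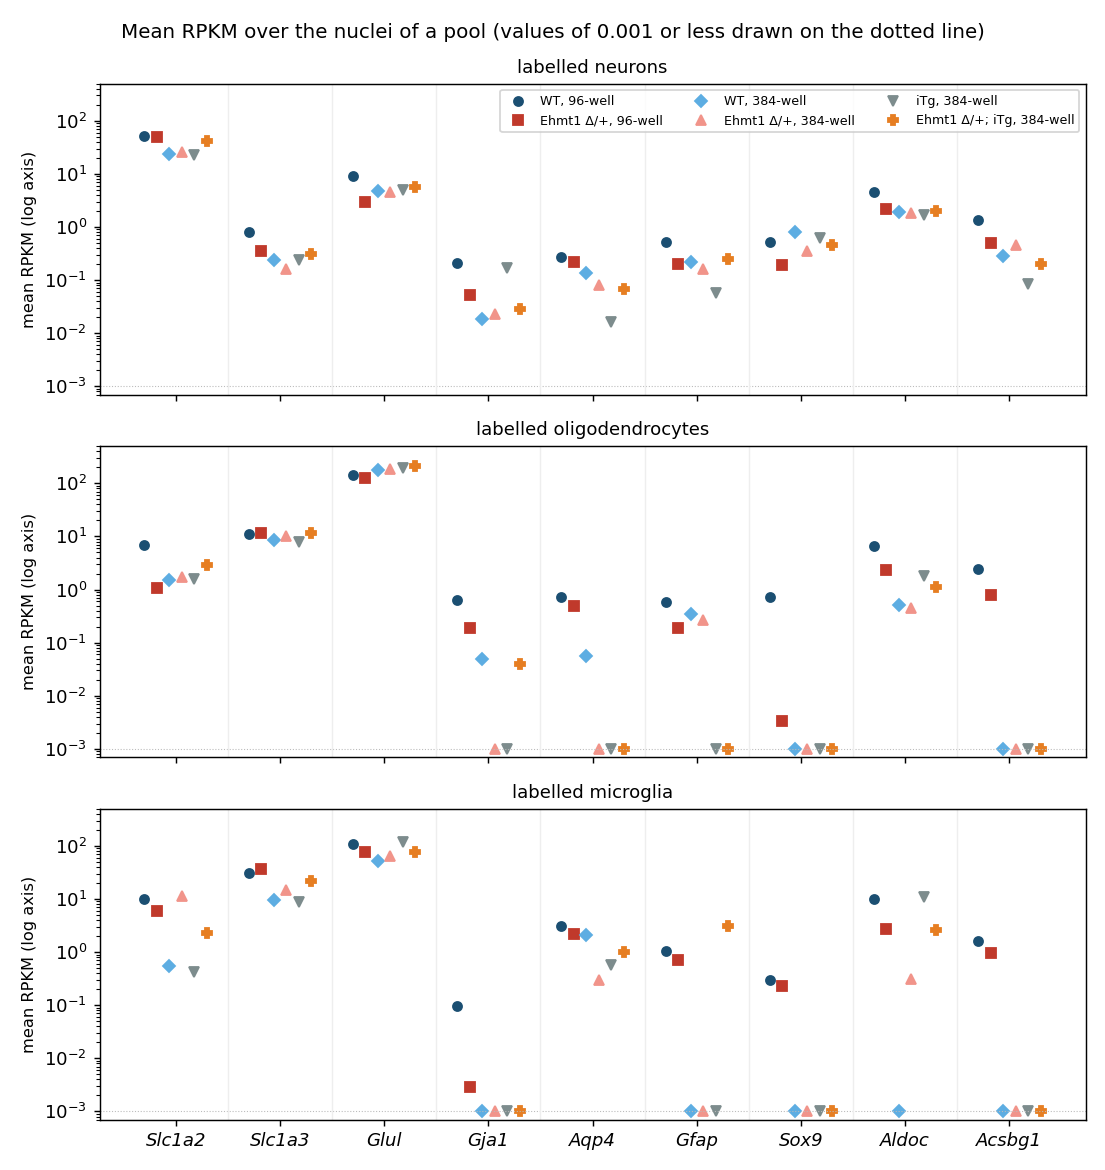
Mean RPKM (log axis) of each astrocyte gene over the nuclei of a pool, by cell type label (panels) and pool (symbols), values of 0.001 or less on the dotted line. *Slc1a2* is highest in neurons, *Glul* in oligodendrocytes and *Slc1a3* in microglia, and 384-well glia are often on the dotted line for *Gja1*, *Sox9* and *Acsbg1*.

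The second question was whether single nuclei hold several members. No nucleus held 8 or 9 of them, and the most in any nucleus was 7. Neurons had 4 members above 0 on average in the 96-well WT pool (SD 1.31 over nuclei), 2.65 in the *Ehmt1*Δ/+ pool of these plates, and 2.46, 2.23, 2.22 and 2.56 in the 384-well pools. At least 5 members were above 0 in 84 neurons of the 96-well WT pool (33.2%, exact 95% interval 27.4 to 39.4) and in 16 of the *Ehmt1*Δ/+ pool (6.04%, 3.49 to 9.62). In 384-well plates these were 10, 4, 3 and 11 neurons, or 3.51%, 1.31%, 1.09% and 3.93%. After thinning both 96-well pools to 291080 reads the shares were 31.7% and 4.15%. Each genotype is 1 pool here and the intervals run over its nuclei, so they give no test between genotypes. Over all labels, 150 nuclei (6.80%) had 5 or more members, 11 of them oligodendrocytes, 11 microglia and the others neurons.

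The reads did not spread evenly over the members. *Slc1a2* gave most member reads in neurons, and the other 8 members together gave 8.84%, 3.81%, 8.31%, 7.26%, 8.73% and 5.65%. In 384-well plates neurons with more members were also deeper, as WT neurons with 5 or more had a median of 811631 reads and those with 0 to 2 had 335384. In 96-well plates these medians were 362125 and 324460 reads in WT, but 356674 and 357423 reads in *Ehmt1*Δ/+. At 10 RPKM or more, 0 of the 518 neurons in 96-well and 0 of the 1146 in 384-well plates held 3 of the 7 members other than *Slc1a2* and *Glul*, and only 2 and 4 neurons held 2 of them. Labelled microglia reached 4 of these 7 at once in 96-well plates.

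**Figure D4:**
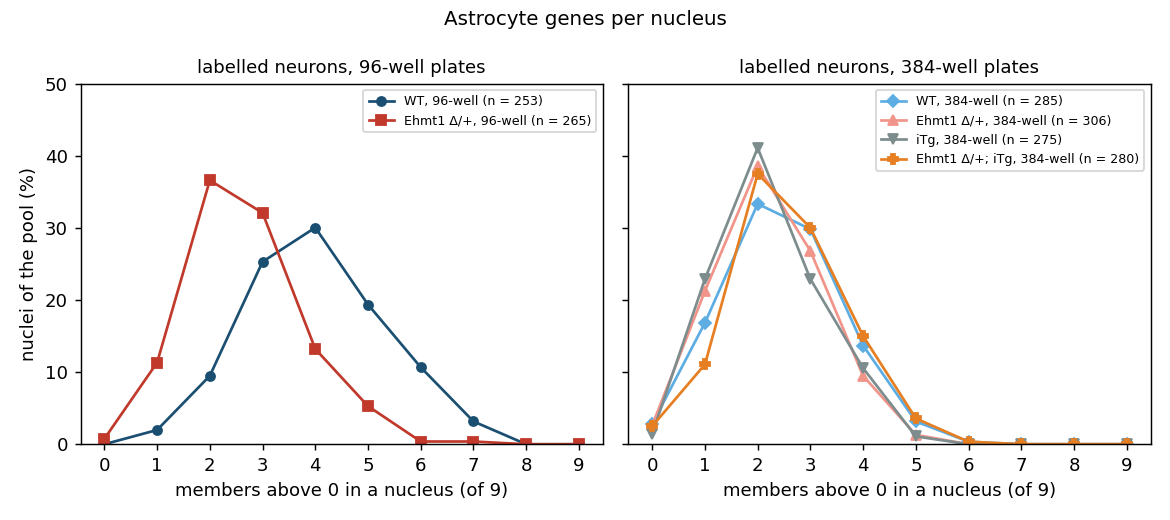
Percent of labelled neurons (vertical axis) by the number of the 9 astrocyte genes above 0 in the nucleus (horizontal axis), 1 line per pool, 96-well plates left and 384-well plates right. The 96-well WT pool has a mean of 4 members and the other 5 pools have means between 2.22 and 2.65.

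For most pairs, finding a member in a neuron went with a small difference in how often another was found. Of the 36 pairs, the first gene was above 0 more often in neurons with the second than without it in 24, 22, 20, 24, 18 and 26 pairs, with a median difference of 2.07, 1.03, 2.02, 2.36, 0.13 and 2.36 percentage points. In 3 pairs the difference was above 0 in 6 of 6 pools, *Glul* with *Aldoc* (5.28 to 19.02 points), *Slc1a2* with *Aqp4* (3.86 to 9.77 points) and *Glul* with *Acsbg1* (4.70 to 19.1 points). *Slc1a2* was above 0 in all neurons with *Aqp4*, 29 in 96-well and 16 in 384-well plates. Among neurons without *Aqp4* it was above 0 in 93.05% and 91.5%. The difference of that pair is thus the gap to 100%, on few neurons. *Gja1* with *Aqp4*, the connexin and the water channel, was lower in 6 of 6, and both were above 0 in 3 neurons of the 96-well WT pool and in 0 neurons of each other pool, although few neurons have either. Over 518 neurons of the 96-well plates the Pearson r between members ran from -0.07 to 0.33 with a median of 0.05, the highest for *Glul* with *Aldoc*. Over 1146 neurons of the 384-well plates it ran from -0.10 to 0.14 with a median of 0.01. Neurons share pools and depth, so these are descriptions, and in counts this sparse a weak r is no finding.

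The nucleus closest to a full set was a labelled neuron of the 96-well WT pool, chosen after the values were seen. It had 7 members and 18 of the 20 other astrocyte genes of a wider list above 0, 25 of 29 in all, with *Glul* at 36.6, *Slc1a2* at 30.9, *Acsbg1* at 11.4, *Slc1a3* at 4.42, *Aqp4* at 3.37, *Aldoc* at 3.15 and *Gja1* at 1.003 RPKM. *Gfap* and *Sox9* were at 0, and the sum of its 8 neuron markers lay within the range of its pool's neurons, 129.2 to 790.3 RPKM. The next nucleus held 20 of 29. Another nucleus with 7 members was a labelled microglial one of the same pool, with *Glul* at 142.5, *Aldoc* at 55.6, *Slc1a3* at 45.1, *Aqp4* at 22.9 and *Acsbg1* at 17.5 RPKM beside *Csf1r* at 1386 and *Ctss*, a microglial protease gene, at 654 RPKM.

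The wider astrocyte list was read in neurons of every pool. The 20 other astrocyte genes summed to 59.1, 48.6, 54.8, 54.1, 55.4 and 55.5 RPKM in neurons, with 8.01, 6.68, 6.23, 5.99, 5.89 and 6.36 of them above 0 per neuron. Labelled glia also carried them. In oligodendrocytes they summed higher, to 212.9 and 150.1 RPKM in 96-well plates and 108.7, 83.6 and 91.1 RPKM in 384-well WT, *Ehmt1*Δ/+ and iTg. Microglia of these pools were at 94.4, 170.9, 22.6, 120.5 and 12.8 RPKM. These microglial means were raised by few nuclei, as the medians were 42.5, 34.7, 5.94, 0 and 0 RPKM. The highest microglial nucleus of each pool stood at 1561, 2657, 86.5, 1399 and 83.2 RPKM. In the neurons with 5 or more members they summed to 67.6 RPKM, against 53.5 RPKM in the 1536 with 4 or fewer, and the neuron markers to 373 against 330 RPKM. The 96-well WT pool gave 84 of the neurons with 5 or more members, and within it the other astrocyte genes summed to 67.3 against 55.02 RPKM and the neuron markers to 389.8 against 381.3 RPKM. Over the 150 nuclei with 5 or more members, the list's highest genes were *Clu* at 11.5 RPKM (above 0 in 88%), which encodes the secreted chaperone clusterin, *Ndrg2* at 10.4 RPKM (70%), *Apoe* at 8.58 RPKM (77.3%), which encodes the lipid carrier apolipoprotein E, and *Htra1* at 7.73 RPKM (34.7%), which encodes a secreted protease. In the same 150 nuclei the leading neuron markers were *Snap25* (113.3 RPKM), *Syt1* (71.3 RPKM), *Slc17a7* (66.4 RPKM) and *Nrgn* (23.4 RPKM), and among the oligodendrocyte markers were *Mbp* (68.2 RPKM), *Cldn11* (47.97 RPKM) and *Mag* (43.9 RPKM). Among the microglia markers were *Csf1r* (76.3 RPKM), *Ctss* (36.2 RPKM) and *P2ry12* (33.8 RPKM), and the leading markers of oligodendrocyte precursors were *Olig2* (4.38 RPKM), *Vcan* (3.74 RPKM), *Pdgfra* (2.43 RPKM) and *Cspg4* (1.92 RPKM). The oligodendrocyte and microglia values come mostly from the labelled glia among these nuclei. The oligodendrocyte markers summed to 5158 RPKM in the 11 oligodendrocytes and to 17.3 RPKM in the neurons, and *Cldn11* and *Mag* were above 0 in 18% and 24.7% of the 150 nuclei. The microglia markers summed to 4288 RPKM in the 11 microglia and to 11.01 RPKM in the neurons, with *Ctss* above 0 in 8%. Endothelial and mural markers were lowest, with *Pecam1* (0.506 RPKM), *Rgs5* (0.424 RPKM), *Pdgfrb* (0.343 RPKM) and *Vtn* (0.266 RPKM) leading.

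The genes whose values over neurons were most like the mean of the members, the 5 first by the smaller r of both plate formats, were *Nptx1* (0.33), *Clstn1* (0.32), *Dkk3* (0.32), *Atp2a2* (0.32) and *Adora1* (0.32), of which *Nptx1* encodes a synaptic pentraxin and *Adora1* an adenosine receptor. For single members the first was *Prox1* for *Slc1a3* (0.33), *Flnc* for *Gja1* (0.20), *Chrna4* for *Glul* (0.19), *Ndrg2* for *Aldoc* (0.19), *Camk1g* for *Sox9* (0.18), *Chst9* for *Aqp4* (0.18), *Lsp1* for *Acsbg1* (0.11) and *Tmem19* for *Gfap* (0.10). Only *Ndrg2* among these is on the wider astrocyte list.

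The 96-well WT pool stood apart. Its neurons had the highest share above 0 of the 6 pools for 9 of 9 members and the highest mean for 8 of 9, all but *Sox9*, while 41.6% and 28.7% of the 23853 genes past the filter in neurons, which hold 5 of the members, were highest there. Its share exceeded 1.5 times that of every other pool for 6 members (*Slc1a3*, *Gja1*, *Aqp4*, *Gfap*, *Aldoc* and *Acsbg1*), against 0.658% of genes, and its mean did so for 5 (*Slc1a3*, *Glul*, *Gfap*, *Aldoc* and *Acsbg1*), against 1.89% of genes. Of the 5 members past the filter on low values, 2 (*Aldoc* and *Acsbg1*) and 3 (these and *Glul*) did so. *Acsbg1* passed the filter through the WT pools alone, so a high WT value was favoured for it. *Slc1a3*, *Gja1*, *Aqp4* and *Gfap* did not pass, so the shares of genes given are not a like set for them. Neuron markers were higher in the glia of this pool too. The 8 neuron markers summed to 80.9 RPKM in its oligodendrocytes and 101.8 RPKM in its microglia, against 5.37 to 19.2 and 2.83 to 24.5 RPKM in the other pools. The part of this in the members' values was not tested. Titles of the 96-well nuclei carry 4 codes per pool of unstated meaning. A code can be carried by more nuclei than a 96-well plate holds, such as 63 WT and 60 *Ehmt1*Δ/+ neurons for the same code. It is therefore not a single plate. By code, the share of neurons with 5 or more members was 25% to 39.3% in WT and 1.41% to 13.3% in *Ehmt1*Δ/+, without overlap. Of these codes 3 are shared by both pools, and in them the share was 36.5% against 13.3%, 39.3% against 4.48% and 32.3% against 1.41% in WT and *Ehmt1*Δ/+. *Aldoc* within the shared codes was above 0 in 76.2% against 63.3%, 83.6% against 37.3% and 75.4% against 46.5% of neurons. In 384-well plates the WT pool has a code of its own and the other 3 pools share another, so that code and the WT genotype cannot be told apart. Over all codes of the 96-well plates, *Aldoc* (75.4% to 83.6% against 37.3% to 63.3%) and *Glul* (89.1% to 98.4% against 56.3% to 86.7%) did not overlap either. The neuron shares of *Slc1a3*, *Gja1*, *Gfap* and *Acsbg1* were also without overlap. *Sox9* did overlap (9.23% to 23.8% against 8.33% to 11.3%), and so did *Slc1a2* and *Aqp4*. How many of all genes are without overlap between these pools was not tested, so no background is given for these members.

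A few nuclei set some values of the *Ehmt1*Δ/+ pool of the 96-well plates. In 2 of its labelled neurons the oligodendrocyte precursor markers summed to 1762 and 1334 RPKM, and these held *Slc1a3* at 16.2 and 31.1 RPKM. Without them and a neuron with oligodendrocyte markers at 368.5 RPKM, the neuron mean of *Slc1a3* in that pool went from 0.360 to 0.182 RPKM and that of *Aqp4* from 0.223 to 0.158 RPKM, while the share with 5 or more members went from 6.04% to 5.73%. In the *Ehmt1*Δ/+ pool of the 384-well plates 1 neuron had microglia markers at 533 RPKM, and in the 96-well WT pool 1 microglial nucleus had endothelial and mural markers at 147.4 RPKM.

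Pools labelled *Ehmt1*Δ/+ were compared with WT over both plate formats, which allows a test with 4 pools in which the format is a term and 1 degree of freedom is left for the spread. In neurons, limma with Benjamini-Hochberg adjustment called 0 of 23853 genes (0%), with 761 genes higher and 1667 lower (6.99%) at an unadjusted p under 0.05. In oligodendrocytes it called 0 of 12832 (0%), with 1.68% higher and 3.04% lower at that p, and in microglia 0 of 13686 (0%), with 0.899% higher and 1.03% lower. Of the members, 5 passed the filter in neurons and 0 were called. *Sox9* and *Acsbg1* passed it through the WT pools alone, with 9.81% of 96-well and 8.82% of 384-well neurons labelled *Ehmt1*Δ/+ above 0, respectively, so a lower value was favoured for them. The log2 ratio was 0.03 (SE 0.11) for *Slc1a2*, -0.82 (SE 0.41) for *Glul*, -1.05 (SE 0.10) for *Sox9*, -0.53 (SE 0.27) for *Aldoc* and -0.38 (SE 0.48) for *Acsbg1*, with limma adjusted p of 0.949, 0.577, 0.461, 0.577 and 0.825. With no filter on low values all 9 members were fitted, 0 were called, 8 were lower and their median was -0.53, against -0.02 over 43702 genes. *Sox9* had the lowest unadjusted p, 0.000935 by limma, but 1 WT neuron of the 384-well plates at 117.6 RPKM gave much of the difference in that format. The *Sox9* ratio was -0.38 with a pseudocount of 1 and -0.10 with the mean of log2(RPKM + 1), where the unadjusted p by limma was 0.206. Without either 96-well pool in a fit over 6 pools, the ratios of *Glul*, *Aldoc* and *Acsbg1* turned to 0.076, 0.11 and 0.60. Leaving out its highest nucleus in each pool, the *Sox9* ratio was -0.93 in 96-well and -0.38 in 384-well plates, in place of -1.08 and -1.01.

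The formats differed in the size of the neuronal difference. In 96-well plates all 9 members were lower in the pool labelled *Ehmt1*Δ/+, with a median log2 ratio of -1.02, and 6 were under -1 (*Glul*, *Gja1*, *Gfap*, *Sox9*, *Aldoc* and *Acsbg1*). Of the 5 members past the filter 4 were under -1, against 1.42% of the genes past it, although *Sox9* and *Acsbg1* passed through WT. *Gja1* and *Gfap* did not pass. In 384-well plates 6 of 9 were lower with a median of -0.06, and *Sox9*, 1 of the 5 past the filter, was under -1, against 0.671% of genes past it. Between *Ehmt1*Δ/+; iTg and iTg, also with 1 pool a group and so with no test, 2 of 9 were lower and the median was 0.29. *Gfap* was at 0.253 against 0.0570 RPKM and *Slc1a2* at 40.7 against 22.4 RPKM in the latter pair.

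In glia the members with enough nuclei for the test were *Slc1a2*, *Slc1a3* and *Glul*. Their log2 ratios in oligodendrocytes were -1.24, 0.14 and -0.03, and in microglia 1.70, 0.42 and -0.09, with 0 called by limma. The 1.70 comes from the 384-well pair, at 11.4 RPKM in *Ehmt1*Δ/+ against 0.552 RPKM in WT, with 47.4% against 12.5% of microglia above 0. Without the highest nucleus of each pool that pair was at 3.96 in place of 4.14. The 96-well pair was at -0.73. In 96-well oligodendrocytes 1 of the 3 members past the filter, *Slc1a2*, was under a log2 ratio of -1, against 4.1% of the genes past it, and in 384-well oligodendrocytes 0 of 3 were, against 9.91%. *Gja1*, *Gfap*, *Sox9*, *Aldoc* and *Acsbg1*, which did not pass, were also under -1 in the 96-well pair, on few nuclei for all but *Aldoc*. In the 96-well oligodendrocytes the neuron markers went with these members, at 80.9 RPKM in WT and 19.2 RPKM in *Ehmt1*Δ/+, and their part in the result was not tested.

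**Figure D5:**
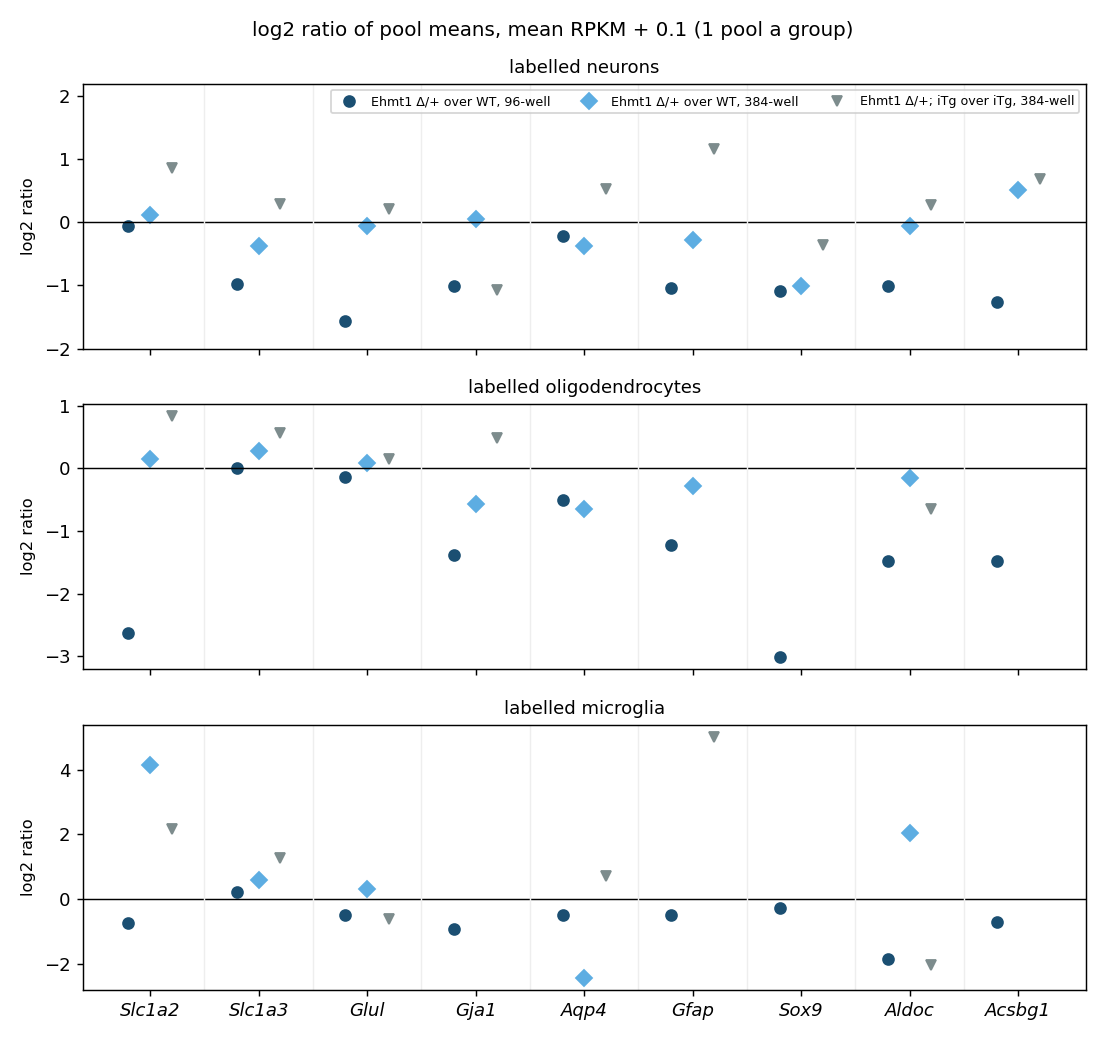
log2 ratio of pool means (mean RPKM + 0.1) of the pool labelled *Ehmt1*Δ/+ over its counterpart, by astrocyte gene and cell type label (panels), 1 symbol per pair of pools. In neurons the 96-well pair lies below 0 for 9 of 9 members (median -1.02), the 384-well pair has a median of -0.06 and the pair with *CamKII-CreER* of 0.29. Members at 0 in both pools have no symbol.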

How the data were processed

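RNA of 2207 nuclei was measured, with pool and cell type taken from the sample labels; all 2207 columns matched a sample by name. Per the study's methods, the authors sorted DAPI-positive nuclei, trimmed adapters with Fastq-mcf, mapped reads to mm10 with HISAT2 2.0.4, counted them with featureCounts (Subread 1.5.0) and a Gencode annotation, labelled 3 UMAP clusters by marker genes and left out nuclei with weak features; bcl2fastq 1.0 is also named in the submitters' processing notes. The cell counts their methods give equal those of the labels except for neurons labelled *Ehmt1*Δ/+; iTg, where the methods give more. The authors deposited RPKM values, 1 table per plate format, and these were used here. Cell types were set from the same values, so labels were compared without a test.

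Gene identifiers were matched without their version (52403 of 52636) and positions taken from GENCODE M21 where the version was the same. Read totals were recovered from the steps of the RPKM values, with 25.6% of values in 96-well and 20.8% in 384-well plates not whole reads (tolerance 0.01). A gene was detected above 0, and thinned shares used the expected detection at a fixed depth, the lowest 10th percentile of the labels, leaving out shallower nuclei. Exact Clopper-Pearson intervals (95%) and the limit at 3 counts cover counting error only. The test used limma 3.58.1 in R 4.3.3 on log2(pool mean RPKM + 0.1), which understates ratios of low genes, for genes above 0 in at least 10% of nuclei of 1 genotype in both formats, with a Benjamini-Hochberg threshold of 0.05. Pools are the samples, with 1 pool per genotype and format. The p-values rest on how far the formats differ in the ratio, with a variance partly shared over genes. They do not measure a spread between like pools or between mice. The steps were tested on simulated data. Python 3.11.15, numpy 2.4.6, pandas 2.3.3, SciPy 1.17.1 and matplotlib 3.10.9 did the rest.

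The members, the gene lists and the tests were chosen with earlier results of these data known. Named are the 9 members, the 4 genes of each list with the highest mean over nuclei with 5 or more members, the 5 genes most like the members' mean and the first for each member; some list genes that this rule takes are not reported here. Alternatives were other pseudocounts, filters, averages, fits, detection limits, depths and member counts, and each pool left out of a fit over 6 pools. Chosen after seeing the data were leaving out nuclei against their label or each member's highest nucleus.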

Additional observations from a re-analysis of the deposited data

Results flagged for a closer look

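In 3 cell type labels, members tested with limma had log2 ratios of the pool labelled *Ehmt1*Δ/+ over WT with opposite signs in the plate formats, with 1 pool a group in each; the difference between the formats was not tested. In neurons *Slc1a2*, the glutamate transporter gene, was at -0.053 in 96-well and 0.11 in 384-well plates, and *Acsbg1*, of fatty acid activation, at -1.27 and 0.51. In oligodendrocytes *Slc1a2* was at -2.63 and 0.15, and *Glul*, of glutamine synthesis, at -0.14 and 0.082. In microglia *Slc1a2* was at -0.73 and 4.14, and *Glul* at -0.50 and 0.32.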

How the results depend on the processing

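With 1 residual degree of freedom, the 0 calls say little about small changes. In this section single pools were left out of a fit over 6 pools, not of the test with 4 pools. That fit adds the pair of *Ehmt1*Δ/+; iTg and iTg pools, so values with pools left out can include this other comparison. Calls in neurons ran from 0 to 1 with a pool left out, and were 0 to 1 likewise in oligodendrocytes, where a mean of log2(RPKM + 1) gave 6 and limma trend gave 2. The members' median in oligodendrocytes was -0.25 with that mean and -0.14 to 0.41 with pools left out, and in microglia -0.50 to 0.93. Directions turned for *Slc1a3* in oligodendrocytes (-0.049 with that mean) and *Glul* there (0.032 over 6 pools). With pools or a format left out the log2 ratios ran from -0.053 to 0.49 for *Slc1a2*, -1.57 to 0.076 for *Glul*, -1.002 to 0.11 for *Aldoc* and -1.27 to 0.60 for *Acsbg1* in neurons (*Glul*, *Aldoc* and *Acsbg1* were above 0 without either 96-well pool, and *Acsbg1* also without both, at 0.51), from -2.63 to 0.49 for *Slc1a2* and -0.14 to 0.12 for *Glul* in oligodendrocytes, and from -0.73 to 4.14 for *Slc1a2* and -0.55 to 0.32 for *Glul* in microglia. The cause was not tested.

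The share of neurons with 5 or more members was 33.2% in the 96-well WT pool, 6.04% in *Ehmt1*Δ/+ and 2.44% in all 384-well pools. With 2 or more reads it was 20.6%, 1.51% and 0.960%, and with 1 RPKM or more 19.8%, 1.89% and 0.436%. At 26381 reads it was 1.12%, 0.137% and 0.0264%. For 4 or more members it was 63.2%, 19.3% and 14.6%, for 6 or more 13.8%, 0.755% and 0.175%, and without *Slc1a2* 13.8%, 1.13% and 0.175%. Single title codes gave 25% in WT, and 13.3% and 1.41% in *Ehmt1*Δ/+. The median share of the 9 members in neurons went from 19.5% to 14.1% (1 RPKM) and 6.72% (26381 reads) in 96-well plates, and from 8.03% to 5.50% (2 reads), 5.67% (1 RPKM) and 2.77% (26381 reads) in 384-well plates. In iTg neurons 18 pairs of members went to 9 at that depth. No paired analysis was possible because pools carry no shared replicate numbers. The plate format was the block. The 3 title codes that the 96-well pools share are of unstated meaning and tie no samples to a mouse. *Sox9* in neurons kept its direction, from -0.10 (mean of log2(RPKM + 1)) to -1.28 (pseudocount 0.01).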
